A study of Homo sapiens with 8 samples.

Results

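A total of 418 gene intervals of chromosome 1 were counted in microvesicles and were at or near 0 in the cells that shed them. They were chosen from a table of read counts per gene as the features with at least 10 counts over 4 microvesicle libraries together and at most 1 count over 4 cell lysate libraries together. They are 418 of 5363 chromosome 1 features (7.79%), of 63568 features in the whole table, and of the 2522 chromosome 1 features with at least 10 microvesicle counts they make up 16.6%. The other 2104 of those 2522 features had 2 or more cell counts and serve below for comparison. Of the 418 intervals, 231 had no cell count and 187 had 1, so silent means at most 1 count at the depth of these lysates.

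The study, named TRACE-seq, transfected HEK 293T, a human embryonic kidney line, in 10 cm dishes with lipofectamine. Construct cultures received GFP-C-YTHDF1 with GBP1-CD9, and control cultures received GFP with GBP1-CD9, so both carried the CD9 fusion and differed by the YTHDF1 part of the GFP protein. All cultures were kept in medium with 10% exosome-depleted serum and RNase A at 30 µg/mL and with penicillin and streptomycin at 1%, and no untransfected culture was analysed here. Microvesicles came from serial ultracentrifugation with a 0.8 µm filter, and the 8 libraries form 4 groups of 2: construct cells and construct microvesicles (replicates II and III), and control cells and control microvesicles (replicates I and II). The labels do not say that the cultures were separate, so any p-value measures how far these libraries differ among themselves, a spread that may be technical.

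Microvesicles are small membrane sacs that bud from the plasma membrane and carry part of the cell's RNA, and CD9 is a tetraspanin of such membranes. YTHDF1 binds messenger RNA that carries N6-methyladenosine. RNase A digests RNA that is not enclosed. The SMART-Seq2 method used here copies RNA from a primer that binds poly(A) and amplifies the copies by PCR before the Nextera enzyme cuts them.

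The total count was 34602 in construct II and 64025 in construct III microvesicles, 238416 in control I and 479140 in control II microvesicles, and between 42950 and 163157 in the cell libraries. All 1190053 counts lay on chromosome 1, and the transfected genes YTHDF1 and CD9, on other chromosomes, had 0 counts, so the constructs could not be checked; the labelled cell line was not checked against markers either. Counts did not lie where the gene symbols say. The features with the symbols RPL5, RPL11, RPL22 and RPS27, ribosomal protein genes that every cell uses, held 279 cell counts together, and the features lying at the positions that the GRCh38 assembly gives these genes held 7477. RPS27 had 275 of the 279, and RPL5 went the other way, with 3 cell counts at its symbol and 0 at its GRCh38 position. The file states hg19 coordinates. A symbol below is therefore the name of an annotated interval, and the known role of the gene behind a symbol is background on the name. For some intervals the hg19 position, or the gene that GRCh38 has at the same numbers, is given beside the name. Where no GRCh38 gene is given, there may still be one: the TNFRSF14 interval, for example, lies at numbers of PLCH2. RPL22 is itself 1 of the 418: its interval had 0, 9, 19 and 6 counts in the microvesicles and 0 in cells.

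Of the 418 intervals, 41 have 1 merged exon, at most 300 bases and a control count, and those of highest mean CPM among them are shown here. All of those shown are annotated as structural or regulatory RNAs that are made without a poly(A) tail or as short precursors. The letters are the hg19 sequence of the annotated strand, 5′ to 3′, with runs of at least 5 A or at least 5 T in capitals. Counts for the ribosomal protein genes together lay mostly at GRCh38 positions, as given above, so the letters counted may be others. The assembly on which the reads were placed was not tested. The first 3 carry U6 names, U6 being the small nuclear RNA at the catalytic centre of the spliceosome: RNU6V (chr1:110134156-110134262, minus strand), RNU6-1246P (chr1:73183346-73183452, minus) and RNU6-970P (chr1:93435161-93435267, minus). They are followed by a Y RNA, a class that binds the Ro60 protein (chr1:26203987-26204096, plus), by SNORA73B, an H/ACA small nucleolar RNA (chr1:28835071-28835274, plus), and by intervals annotated as microRNA precursors, MIR3671 (chr1:65523438-65523525, minus) and AL844165.1 (chr1:231124735-231124869, minus).
RNU6V: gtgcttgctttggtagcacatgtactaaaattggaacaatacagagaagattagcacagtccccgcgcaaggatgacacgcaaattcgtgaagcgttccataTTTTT
RNU6-1246P: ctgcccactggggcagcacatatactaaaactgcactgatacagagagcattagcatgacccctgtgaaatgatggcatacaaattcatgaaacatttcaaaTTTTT
RNU6-970P: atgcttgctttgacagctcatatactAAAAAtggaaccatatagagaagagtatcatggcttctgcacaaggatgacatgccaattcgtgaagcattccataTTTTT
Y_RNA: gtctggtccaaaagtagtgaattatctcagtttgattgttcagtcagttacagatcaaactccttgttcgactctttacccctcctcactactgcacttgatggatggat
SNORA73B: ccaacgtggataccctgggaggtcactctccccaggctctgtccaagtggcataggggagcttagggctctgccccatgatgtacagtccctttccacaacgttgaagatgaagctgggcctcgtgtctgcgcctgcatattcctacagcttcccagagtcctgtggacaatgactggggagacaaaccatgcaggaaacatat
MIR3671: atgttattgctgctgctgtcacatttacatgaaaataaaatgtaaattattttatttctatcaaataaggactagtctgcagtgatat
AL844165.1: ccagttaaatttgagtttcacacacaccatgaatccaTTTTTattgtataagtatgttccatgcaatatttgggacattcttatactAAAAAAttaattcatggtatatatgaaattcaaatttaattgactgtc

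The 3 U6 intervals have the same length, 107 bases, and each ends in a run of T, the signal at which RNA polymerase III stops. The 4 counts of RNU6V, in the order construct II, construct III, control I and control II used throughout, were 0, 0, 0 and 254; those of RNU6-1246P were 0, 3, 1 and 185; and those of RNU6-970P were 0, 0, 88 and 0. Each U6 interval thus had nearly all its counts in 1 control library, and not always the same library. The Y RNA had 0, 0, 94 and 0 counts and SNORA73B had 0, 1, 197 and 0. MIR3671 was more even, with 8, 0, 23 and 22. AL844165.1 had 0, 0, 163 and 4 counts, so control I held nearly all of them.

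Summed over the 4 microvesicle libraries, the 418 intervals ranged from the threshold of 10 to 2204 counts, with a median of 23 and quartiles of 14 and 44. There were 183 intervals with 10 to 19 counts, 93 with at least 50, 54 with at least 100 and 6 with at least 500. The 10 highest held 32.5% of the 26886 counts on the set, so the set has many faint members and a few strong ones. These sums chose the intervals and are given as a description. At the edge of the rule, 34 intervals had exactly 10 microvesicle counts and 22 features just outside had 9. ENSG00000239664.2 (0, 0, 10, 0), MIR200B (0, 2, 7, 1) and LINC01646 (0, 0, 0, 10) lay just inside, and ENSG00000231181 (0, 3, 2, 4), PLA2G2E (0, 0, 8, 1) and C1QA (0, 4, 3, 2) just outside. On the cell side, C1QTNF12 and LINC01770 had 1 cell count, and OR4F5, TMEM88B and ENSG00000224387 had 2; OR4F5 had 363 microvesicle counts, and the median over the 190 features with 2 cell counts and at least 10 microvesicle counts was 23.5, close to the 23 of the intervals with 1 and with 0 cell counts.

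The depth of the lysates sets what silence means. The cell libraries held 373870 counts against 816183 in the microvesicle libraries, and 3 counts, the limit that a count of 0 allows, correspond to 8.02 CPM (counts divided by the library total and scaled to a common total) over the pooled cells, close to the 12.3 CPM that 10 counts make in the pooled microvesicles. That limit is for the 231 intervals with 0 cell counts, and the limit for the 187 with 1 cell count is higher. At equal shares, a feature with 10 microvesicle counts would have given 4.58 cell counts, and the median interval 10.5. With the 2 highest microvesicle features, which hold 449859 counts, left out of the microvesicle total alone, 10 microvesicle counts would give 10.2 cell counts. The cell total was kept whole there. Such limits cover counting error only, since PCR reads without molecular identifiers are not independent molecules. In these bulk libraries, fewer vesicles that carry an RNA and less of that RNA per vesicle cannot be told apart, and the same holds for cells.

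The 418 intervals took 1.32% of the counts of construct II microvesicles (95% Wilson interval 1.20 to 1.44%), 2.80% of construct III (2.68 to 2.93%), 4.86% of control I (4.77 to 4.95%) and 2.72% of control II (2.68 to 2.77%). In cells they held between 0.0405% and 0.0652% of the counts, a level that the rule fixes. The number of intervals with a count followed depth in part: 84 in construct II, 265 in construct III, 347 in control I and 324 in control II. Where an interval was present, its median count was 1, 3, 10 and 9.5 in these libraries. Control libraries held 91.6% of the counts on the set and 87.9% of all microvesicle counts, and 191 intervals had their highest count in control I, 169 in control II, 52 in construct III and 6 in construct II. The strongest intervals differed from library to library: CSF3R led in construct II with 75 counts, PKP1 in control I with 627 and MFAP2 in control II with 2156. The 10 strongest intervals of each library held 70.0%, 27.9%, 35.0% and 56.2% of its counts on the set.

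The 11 intervals of highest mean CPM show how rarely a strong signal repeated. PKP1 (chr1:201252580-201302121, 16 merged exons, 6211 exonic bases), the symbol of a desmosomal plaque protein, led the set with 67, 30, 627 and 254 counts, which is 1936, 469, 2630 and 530 CPM, and had 0 cell counts. Its interval is also 1 of 19 that overlap the GRCh38 gene of their own symbol. High and low libraries were spread over both groups, and the construct and control ranges overlapped. CSF3R (chr1:36931644-36948879, at GRCh38 numbers of GRIK3), the symbol of the receptor for granulocyte colony-stimulating factor, had 75, 12, 78 and 121 counts, or 2168, 187, 327 and 253 CPM; construct II was the high library and the groups overlapped. PKP1 and CSF3R were the only intervals among the 11 that were counted in every microvesicle library.

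Each of the other 9 was carried by a part of the libraries. MFAP2 (chr1:17300997-17307330, no GRCh38 gene at these numbers), named for a protein of elastic microfibrils, had 0, 10, 38 and 2156 counts. TEX35 (chr1:178482212-178517734), named for a transcript of testis, had 0, 0, 2 and 1836 counts, so control II held 99.9% of them. Control II was also the high library for TNFRSF14 (chr1:2487078-2496821), the herpesvirus entry mediator, with 1, 9, 0 and 644 counts. Control I, in turn, held nearly all the counts of a run of 5 intervals. These were the long non-coding RNA LINC01527 (0, 2, 496 and 3 counts), ENSG00000224000 (0, 1, 498 and 0), the olfactory receptor pseudogene OR4G11P (0, 8, 445 and 0), MIR205HG, the host of a microRNA of epithelia (0, 0, 458 and 7), and ENSG00000272235 (0, 0, 450 and 1). TLR12P (chr1:33931850-33934555, a toll-like receptor pseudogene at GRCh38 numbers of CSMD2) had 50 and 14 counts in the construct libraries and 0 in both control libraries.

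**Figure D1:**
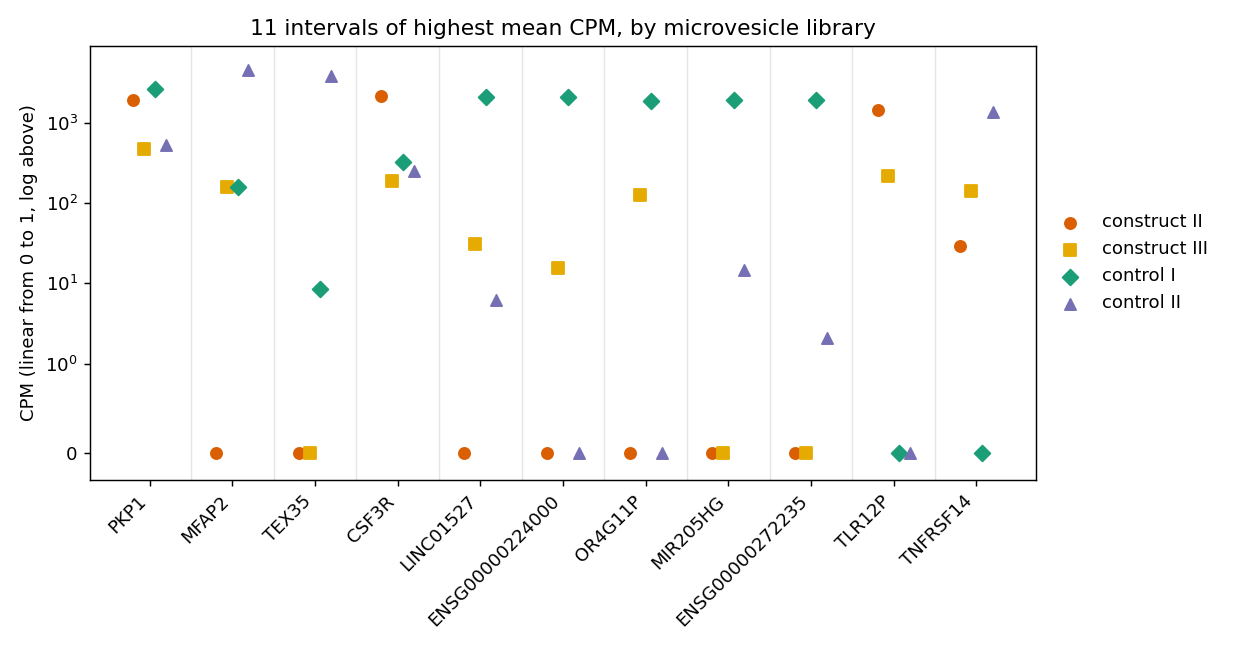
CPM of the 11 intervals of highest mean CPM in each of the 4 microvesicle libraries, on an axis that is linear from 0 to 1 and logarithmic above; each point is 1 library. PKP1 and CSF3R have a value above 0 in all 4 libraries, while TEX35 reaches 3832 CPM in control II and 8.39 CPM in control I and is at 0 in both construct libraries.

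Over all 418 intervals, 76 (18.2%) were counted in 1 microvesicle library, 138 (33.0%) in 2, 148 (35.4%) in 3 and 56 (13.4%) in all 4. Among the 2104 features with cell counts the same shares were 2.14%, 8.70%, 31.4% and 57.8%. The median interval held 83.3% of its counts in its highest library. The most frequent pattern was presence in construct III and both control libraries (130 intervals), followed by both control libraries alone (71) and by all 4 (56); 41 intervals were counted in control I alone, 18 in control II alone, 15 in construct III alone and 2 in construct II alone. Of the silent intervals with 10 to 19, 20 to 49, 50 to 99 and at least 100 counts, 42.6%, 56.3%, 51.3% and 48.1% were present in at least 3 libraries, against 67.4%, 86.5%, 96.0% and 96.4% of the features with cell counts. The median share of the highest library was 80.0%, 79.3%, 86.8% and 97.9% in these classes of silent intervals and 62.5%, 60.0%, 56.0% and 57.7% in the others. The strongest silent intervals were thus the most lopsided. These values come from the libraries that chose the set and carry no test.

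The 8 strongest intervals that were counted in 1 library each show the extreme. ISCUP1, a processed pseudogene of an iron-sulfur cluster scaffold gene (chr1:170180151-170180598), had 647 counts in control II and 0 in the other 3 libraries. ENSG00000223906 (416 counts) and RNU6V (254) were also seen in control II alone, and ENSG00000233920 (316 counts), ENSG00000238260 (276), LINC01767 (249), RAC1P7 (235) and CDCA8 (231) in control I alone. All 8 had 0 cell counts. The 76 intervals of 1 library had a median of 24 counts and a median exonic length of 695 bp.

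The 56 intervals counted in all 4 microvesicle libraries were longer, with a median exonic length of 1932.5 bp, and 32 of them were protein-coding by annotation. In 38 of the 56 the lowest library had 1 count, and in 3, PKP1, CSF3R and ITGB3BP, every library had at least 5. ITGB3BP (chr1:63906441-64059392, at GRCh38 numbers of ROR1), the symbol of a centromere protein, had 9, 25, 21 and 7 counts and 0 in cells, which is 260, 390, 88.1 and 14.6 CPM in the same order. Its construct values lay above both control values.

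Repeatability was read between the replicates of each group. Of the 84 intervals counted in construct II, 61 were also counted in construct III, which is 72.6% of the former and 23.0% of the 265 in construct III. Of the 347 intervals of control I and the 324 of control II, 271 were shared, 78.1% and 83.6%. Among the features with cell counts, 1262 were shared by the construct replicates (96.6% and 65.3%) and 1941 by the control replicates (96.7% and 96.7%). Counts weighed the same way: 36.0% of the control I counts on silent intervals fell on intervals with no count in control II, and 27.8% of those of control II on intervals with none in control I, against 0.837% and 0.763% for the features with cell counts.

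Where a silent interval was counted in both replicates, its CPM differed by a median of 4.35-fold between the control libraries (271 intervals), and 69 of them (25.5%) were at least 10-fold apart. The features with cell counts differed by a median of 2.80-fold there, with 14.3% at least 10-fold apart. Between the construct replicates the median was 1.85-fold over 61 silent intervals, most of them at 1 or a few counts, and 2.33-fold over the others. Both replicates had at least 10 counts for 3 silent intervals in the construct group and for 44 in the control group. Across the 418 intervals, Spearman's rho of the counts was 0.0944 between construct replicates and -0.266 between control replicates, against 0.446 and 0.497 over the 2104 others. The points share library and depth, intervals are not independent replicates, and a minimum on the sum of the libraries lowers rho by itself, so these are descriptions.

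**Figure D2:**
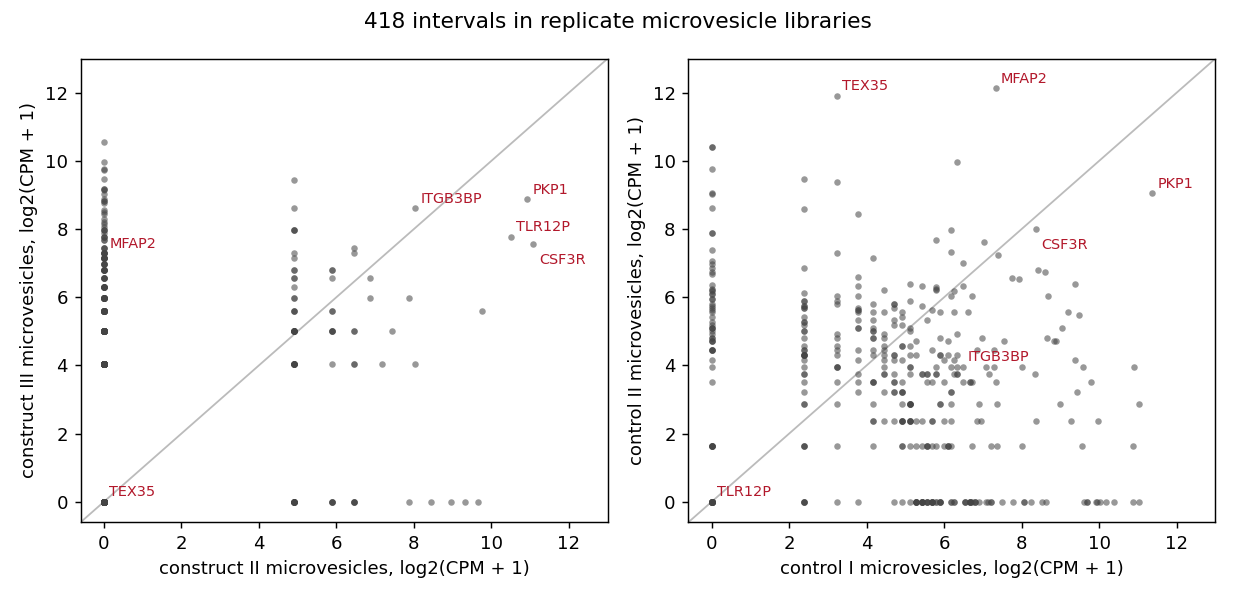
Each point is 1 of the 418 intervals, placed by its log2(CPM + 1) in construct II against construct III microvesicles (left) and in control I against control II microvesicles (right); the line marks equal values. Many points lie on an axis, at 0 in 1 of the replicates, and TEX35 and MFAP2 lie far above the line on the right.

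A choice made without the library under view gives a value that the rule did not use. When the rule was applied to the other 3 microvesicle libraries and the cells, and only features with 10 to 49 counts in those 3 were kept, the silent intervals had a count in the library left out in 18.9% of 318 cases for construct II, 57.0% of 270 for construct III, 73.4% of 203 for control I and 63.1% of 206 for control II. Features with cell counts in the same range of counts were found in 42.6% of 907, 85.2% of 894, 92.8% of 987 and 92.9% of 1027. Silent intervals were found less often in 4 of 4 libraries, by 19.4 to 29.8 percentage points (exact two-sided sign-flip test over the 4 libraries, p = 0.125, the smallest 4 libraries allow). The 4 differences share cell counts and microvesicle libraries and are not independent, so this p does not measure a spread between replicates. The silent intervals were also the fainter within this range, with medians of 16.5 to 18 counts against 23 to 25, and the part of that in the result was not tested. With no upper limit on counts, 75 of 409, 199 of 352, 174 of 245 and 164 of 258 silent intervals were found, and 5, 21, 65 and 57 of them reached at least 10 counts in the library left out. Intervals chosen this way held 1.11%, 1.38%, 1.45% and 1.25% of the left-out library. This choice was added after seeing the data.

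**Figure D3:**
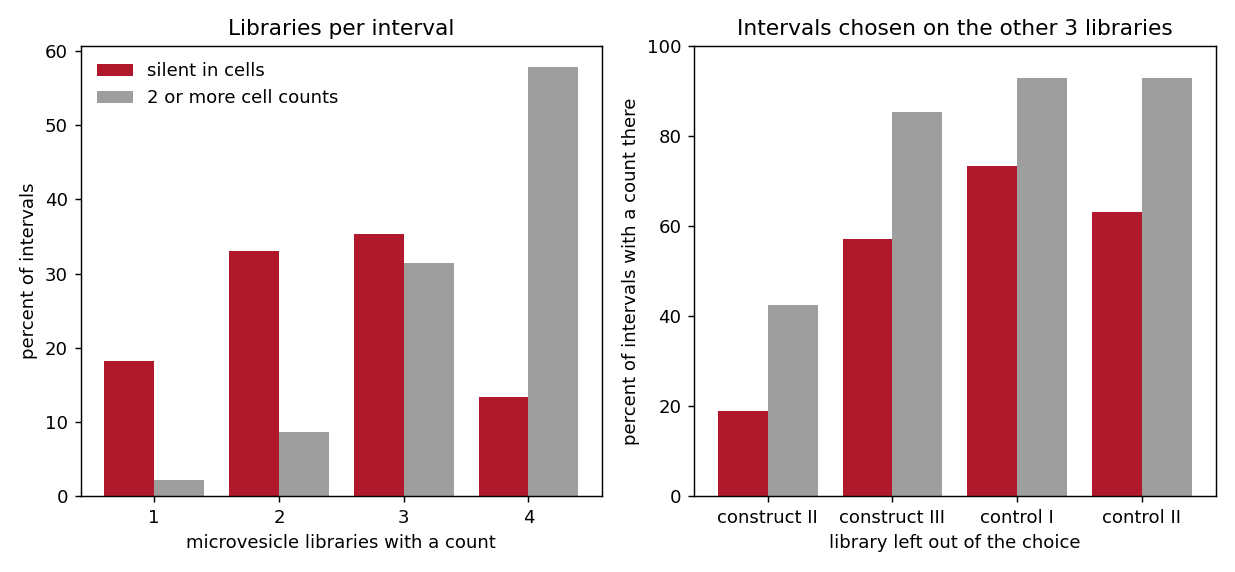
Left: percent of the 418 silent intervals (red) and of the 2104 features with 2 or more cell counts (grey) that were counted in 1, 2, 3 or 4 microvesicle libraries. Right: percent of features with 10 to 49 counts in the other 3 microvesicle libraries that had a count in the library left out; the red bar is lower for each library, from 18.9% against 42.6% in construct II to 63.1% against 92.9% in control II.

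In build, the silent intervals were closer to the annotated features of chromosome 1 as a whole than to the features with cell counts. Their median exonic length was 887.5 bp (quartiles 466 and 2040), against 954 bp over all 5363 features and 3542.5 bp over the 2104 with cell counts. They had a median of 2 merged exons, against 2 and 8, and 36.6% were a single block, against 39.0% and 12.7%. The median span in the genome was 2434 bp, against 2947 bp and 21014 bp. Fainter features were shorter in both sets, but at like counts the silent ones were the shorter: the median was 728 bp against 1359.5 bp at 10 to 19 counts, 948 against 2579 bp at 20 to 49, 990 against 3648 bp at 50 to 99, and 1624 against 5586.5 bp at 100 or more. Cell counts entered the choice of the intervals, and the part of length in it was not tested.

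**Figure D4:**
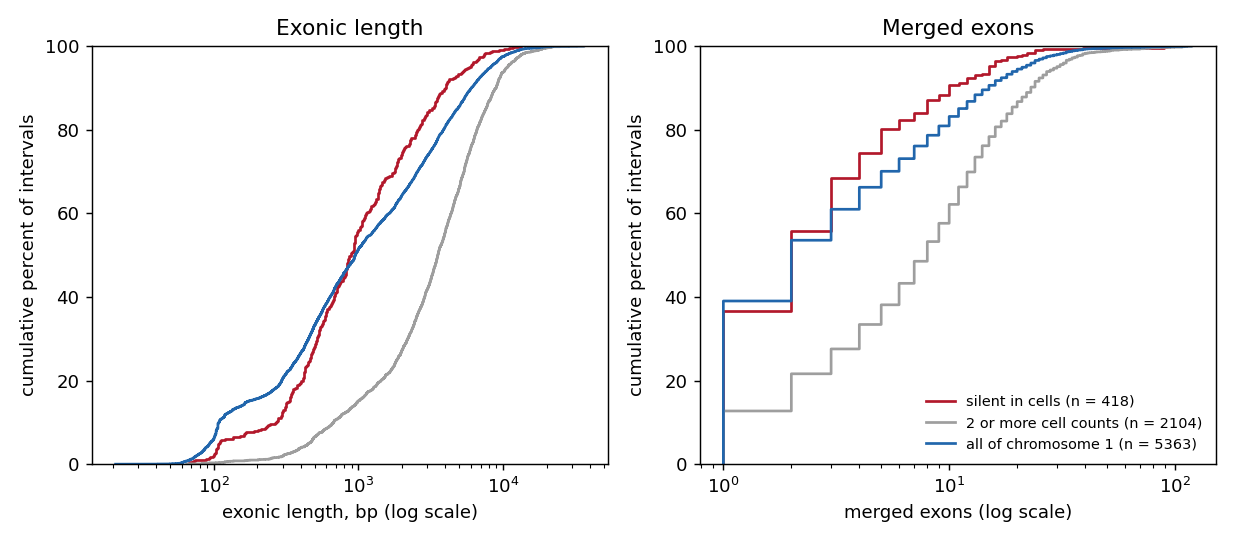
Cumulative percent of intervals by exonic length (left, bp, log axis) and by number of merged exons (right, log axis) for the 418 silent intervals, the 2104 features with 2 or more cell counts and all 5363 chromosome 1 features. The silent intervals run close to all features, with medians of 887.5 and 954 bp, and far to the left of the features with cell counts at 3542.5 bp.

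The longest and the shortest members span a wide range. ENSG00000163386.16 (chr1:145289772-145370303) had 13221 exonic bases in 89 merged exons and 0, 0, 0 and 112 counts, and NBPF8 (chr1:144146808-144224481) had 11781 bases and 0, 0, 2 and 26. PRDM2 (chr1:14026693-14151574), the symbol of a zinc-finger methyltransferase, had 10923 bases and was highest in construct II, with 30, 3, 7 and 4 counts. At the other end, MIR4253 (68 bp) had 1, 0, 22 and 0 counts, ENSG00000268365.1 (69 bp) had 1, 0, 0 and 16, and a snoU13 interval (72 bp) had 0, 0, 78 and 2. Neither long nor short members were even across libraries.

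The numbers of 257 intervals (61.5%) fell on at least 1 GRCh38 gene and those of 161 on none. The share was 73.9% over all chromosome 1 features and 84.9% over those with cell counts. A protein-coding GRCh38 gene lay at 43.8% of the silent intervals, against 60.3% and 73.4%, and at least 50% of the exonic bases were covered in 53.8%, against 65.2% and 69.6%. Only 19 of the 403 silent intervals with a symbol (4.71%) overlapped the GRCh38 gene of that symbol, against 6.30% of 5178 features. In cells, the 569 features with structural RNA symbols held 923 counts, and the 85 features at GRCh38 numbers of such RNAs, which include the numbers of genes around them, held 27349.

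By annotation, 130 intervals (31.1%) were protein-coding, 121 (28.9%) pseudogenes, 114 (27.3%) long non-coding RNAs and 37 (8.85%) short non-coding RNAs. Over all of chromosome 1 these classes made up 37.5%, 22.9%, 21.01% and 14.4%, and over the features with cell counts 70.3%, 10.7%, 15.4% and 1.24%. Protein-coding members were the longest and broadest, with a median of 32 counts and 2495 bp, and 66.2% were counted in at least 3 libraries. Long non-coding members had a median of 19.5 counts and 700.5 bp, with 36.0% in at least 3 libraries and 7 in all 4. Pseudogene members had a median of 20 counts and 685 bp, with 48.8% in at least 3 libraries and 14 in all 4. Of the counts on the set, the protein-coding members held 49.4%, the long non-coding members 25.02%, the pseudogenes 16.8% and the short RNAs 6.66%.

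The 37 short non-coding RNA intervals had the smallest share of members in at least 3 libraries of the 4 classes, 27.0%. They come from 772 such features on chromosome 1 and had 28, 20, 918 and 824 counts in the 4 libraries. None was counted in all 4, 9 were counted in 1 library only, and 19 held at least 90% of their counts in 1 library. The 7 U6 intervals, of 127, had 1, 4, 137 and 454 counts in all. The 4 U1 intervals, of 42, named for the small nuclear RNA that recognises 5′ splice sites, had 0, 0, 51 and 43, and the 4 Y RNA intervals, of 84, had 0, 0, 126 and 30, so neither class had a construct count, at the lower depth of the construct libraries. The 8 intervals of 7SL, the RNA of the signal recognition particle, of 78, had 0, 8, 48 and 205 counts, and all 8 were present in control II. RN7SL344P led them with 0, 0, 13 and 97. The 2 intervals of 7SK, an RNA that restrains transcription elongation, had 63 counts together. The 4 small nucleolar RNA intervals, of 132, had 0, 2, 288 and 11 counts, and the 8 microRNA intervals, of 240, had 27, 3, 239 and 50. Many of these features have near-identical copies in the genome, and reads that map to several places were left out of the counts. Counts for the ribosomal protein genes together also did not lie where the gene symbols say, as given above. These are therefore counts on intervals, and the presence and levels of the RNAs behind the names were not tested.

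**Figure D5:**
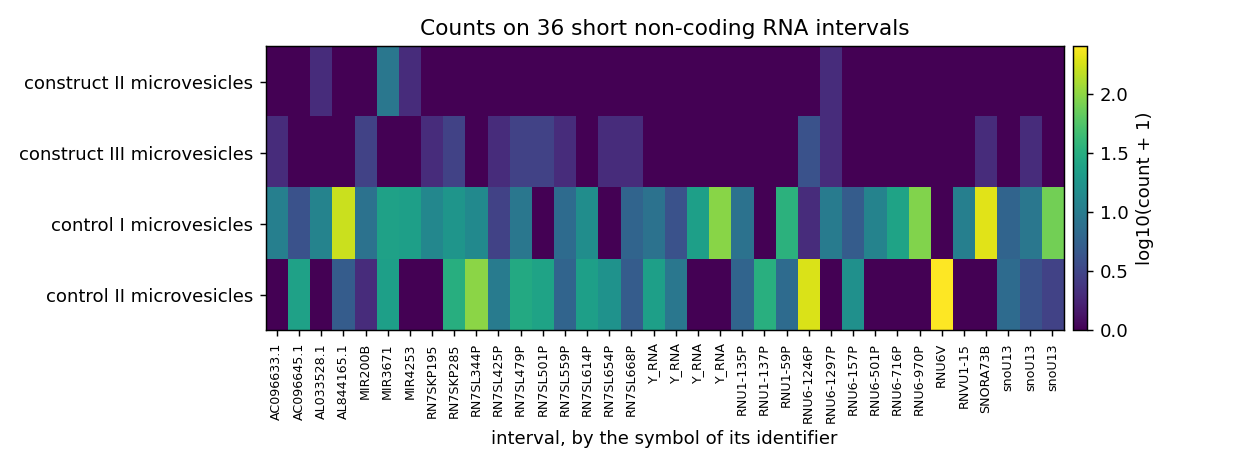
Colour gives log10(count + 1) of the 36 short non-coding RNA intervals with a count in a control library (columns, by symbol) in the 4 microvesicle libraries (rows). The 1 short RNA interval without a control count is not drawn. Bright cells stand alone in a column, such as RNU6V with 254 counts in control II and SNORA73B with 197 counts in control I.

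The median G+C content of the intervals' exonic sequence was 47.5%, against 47.2% over all features and 48.6% over those with cell counts. In the first 300 exonic bases of features at least that long (366 silent, 4264 in all, 2063 with cell counts), a run of AAAAAAAA on the feature's strand was found in 3.01%, 2.56% and 2.33%, and TTTTTTTT, its reverse complement, in 1.09%, 2.06% and 2.23%. A run of at least 5 A or 5 T (AAAAA or TTTTT, which also covers the longer runs), as in capitals above, was found in 45.9%, 42.1% and 35.9%. A poly(A) primer can start on a run of A inside a transcript; these shares describe letters of hg19, and priming was not measured.

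The intervals lay along the whole chromosome, from 52473 to 248802559. Below 130 Mb, 181 of 2781 features were silent intervals (6.51%), and from 130 Mb on 237 of 2582 (9.18%); among features with at least 10 microvesicle counts these shares were 13.5% and 20.1%. By blocks of 10 Mb the share ran from 2.33% of features (1 of 43, 120 to 130 Mb) to 10.97% (17 of 155, 180 to 190 Mb). In the block from 140 to 150 Mb, 28 silent intervals made up 36.8% of the 76 features with at least 10 microvesicle counts. The median gap between neighbours was 263268 bp, 22 of 417 gaps were under 10 kb, and the longest, 22831866 bp, ran from 120286838 to 143118704, over the centromere. In 9 pairs the intervals overlapped, 2 of them on the same strand. The kit does not mark strand, so counts of overlapping intervals on opposite strands cannot be told apart.

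The densest stretch of 1 Mb, starting at 152680636, held 11 silent intervals among 63 features and carries symbols of the epidermal differentiation complex, a gene cluster of the skin barrier. Its 5 strongest were LINC01527 (chr1:152902516-152921686), given above, S100A3 (2, 3, 112 and 12 counts), SPRR2A (0, 37, 0 and 0), LCE4A (0, 7, 24 and 5) and ENSG00000238279 (0, 1, 29 and 2). None of the 5 lies at GRCh38 numbers of a gene. They did not move together: SPRR2A was counted in construct III alone, S100A3 mainly in control I.

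Marker lists of other sources were read by symbol and by GRCh38 numbers. Of 15 skin and keratinocyte markers by symbol, 1 was a silent interval, SPRR2A. Together the 15 took 0.249%, 0.528%, 0.216% and 0.0789% of the microvesicle libraries and 0.0110 to 0.0205% of each cell library. Of 8 features at GRCh38 numbers of these genes, 0 were silent intervals. These 8 took between 0 and 0.0437% of each microvesicle library and 0.00123 to 0.00466% of each cell library. Of 9 blood markers by symbol, CSF3R and FCGR3A were silent intervals, and of 14 features at their GRCh38 numbers 1 was, OR6K1P. Structural RNA symbols gave 28 silent intervals of 569 features (4.92%), and GRCh38 numbers gave 3 of 85, DPYD, ENSG00000236947.1 and CD46P1. The part of other cell types in these counts was not tested.

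Construct and control microvesicles were compared last, a contrast the rule did not use, although deeper control libraries weighed most in the sum that chose the set. The share of library counts on the set was 2.06% ± 1.05 (SD, n = 2) in construct and 3.79% ± 1.51 (n = 2) in control microvesicles, a difference of -1.73 percentage points (exact two-sided permutation test, p = 0.667). Construct III, at 2.80%, lay above control II, at 2.72%, so the groups overlapped. A pair of features outside the set held 449859 of the 816183 microvesicle counts, and against library totals without them the shares were 2.70% and 8.49%, a difference of -5.80 points without overlap (exact p = 0.333). At an equal depth of 34602 counts, 84, 216, 242 and 173 intervals would be expected to have a count, 149.8 ± 93.1 against 207 ± 48.9 (exact p = 0.667); without thinning the numbers were 174.5 ± 128 and 335.5 ± 16.3 (exact p = 0.333, the smallest that 2 against 2 allows). The difference at equal depth was -57.3 intervals, and without construct II it was 13.3, higher in construct, so its direction rests on that library.

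In the fit of the 4 microvesicle libraries with edgeR's quasi-likelihood test, 40 of the 418 intervals passed the filter on low counts and 0 were called at an adjusted p of 0.05; over all 1205 features tested 0.0% were called higher and 0.0% lower in construct. At an unadjusted p under 0.05, 1 interval was higher and 8 were lower, against 5.56% and 5.06% of all features tested. The median log2 fold change of the 40 was -0.99, against -0.29 over all features tested; with library sizes alone as scaling these medians were -0.34 and 0.29, so the level of all features moves with the scaling. The filter asked for counts in at least 2 libraries of any group, and most of the counts that chose the set are control counts, so the direction of the 40 is a description.

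The interval with the smallest adjusted p was TLR12P, with 50 and 14 counts in construct II and III and 0 in both control libraries, or 1445 and 219 CPM against 0 and 0. By full library totals it was at least 155-fold higher in construct, against a limit of 3 counts over the control group (edgeR adjusted p = 0.141, not passing). The 2 highest features hold 449859 of the 816183 microvesicle counts, and this limit holds for totals that include them. TLR12P passed the filter on low counts through the construct libraries alone, so its direction is a description. Among the intervals higher in construct, ITGB3BP, described above, came next with a log2 fold change of 2.34 ± 1.13 (SE; edgeR adjusted p = 0.478). ACTG1P25 (0, 64, 19 and 9 counts), ENSG00000183130.2 (3, 10, 12 and 2) and OXCT2P1 (0, 37, 25 and 1) followed with log2 fold changes of 2.77, 1.90 and 2.15 and edgeR adjusted p of 0.548, 0.675 and 0.675. In ACTG1P25 and OXCT2P1 construct II was at 0 and the groups overlapped, and without construct III the log2 fold changes were -6.32 and -6.21. In ENSG00000183130.2 the construct values, 86.7 and 156 CPM, lay above the control values, 50.3 and 4.17 CPM. This interval passed the filter on low counts through the construct libraries alone, so its direction is a description.

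On the lower side, RP6-206I17.1 (chr1:143647638-143745417), a long non-coding RNA, had 0, 0, 93 and 51 counts. By full library totals it was at least 6.6-fold lower in construct, with 3 counts over the construct group as the limit (edgeR adjusted p = 0.145). OSCP1 (0, 0, 17 and 76 counts) was at least 4.26-fold lower by the same limit (adjusted p = 0.258, edgeR). RP6-206I17.1 and OSCP1, and SNX7 and KLHDC9 below, passed the filter on low counts through the control libraries alone, so their direction is a description. SNX7, the symbol of a sorting nexin, had 0, 1, 81 and 53 counts (log2 fold change -4.94 ± 1.504 SE, edgeR adjusted p = 0.233), KLHDC9 had 0, 1, 17 and 120 (-5.02 ± 1.70, adjusted p = 0.285) and MFAP2 had 0, 10, 38 and 2156 (-6.12 ± 2.36, adjusted p = 0.385). In all 5 both control libraries lay above both construct libraries in CPM, by little in MFAP2, where control I was at 159 CPM and construct III at 156 CPM. The log2 fold change of MFAP2 was -1.34 without control II and -12.62 without construct III.

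Other fits made calls. With all 8 libraries in 1 edgeR model, 4.76% of 1113 features were called higher and 1.44% lower in construct; TLR12P was the called interval of 14 tested (adjusted p = 0.0322). DESeq2 called 6.39% of 1205 features higher and 2.9% lower, among them 6 of the 40 intervals, TLR12P as higher (adjusted p = 1.42e-05) and MFAP2, SNX7, RP6-206I17.1, KLHDC9 and TOMM40L (0, 5, 19 and 475 counts) as lower. The filter of the DESeq2 fit was the same, so SNX7, RP6-206I17.1 and KLHDC9 passed it through the control libraries alone. TLR12P passed through the construct libraries alone, there and in each filtered fit that called it. The direction of these intervals is therefore a description. With library sizes alone, 1.33% were called higher and 0.083% lower, with TLR12P the called interval (adjusted p = 0.0113). With no filter beyond 1 count, 0.462% of 3679 features were called higher and 0.0815% lower, among them 4 of 418 intervals, TLR12P, TEX35, S100A12 (22, 0, 0 and 0 counts) and ENSG00000229016 (0, 54, 0 and 0); TEX35 had all but 2 of its counts in control II, and S100A12 and ENSG00000229016 were counted in 1 library each. On the R1 column alone 3.96% of 707 features were called higher and 1.7% lower, TLR12P and MFAP2 among them, and on R2 alone 0 features were called (84 at an unadjusted p under 0.05). Limma-voom called 0.415% higher and 0.0% lower, with no interval among them (4 at an unadjusted p under 0.05). All 8 libraries with no filter, added after seeing the data, called 3.1% of features higher and 3.02% lower, and 58 of the 418 intervals, 18 higher and 40 lower. Some of the 58 were counted in 1 library alone, such as ISCUP1 (0, 0, 0 and 647 counts). In fits of all 8 libraries, the rule holds the silent intervals near 0 in cells. The cell libraries thus carry no information on the spread of these intervals, and such calls on them are descriptions.

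By CPM alone, 19 of the 418 intervals (4.55%) were higher in both construct libraries than in either control library and 97 (23.2%) lower in both, against 15% and 16.5% of the 2522 features with at least 10 microvesicle counts. The rule's sum weighs the deep control libraries most, which bears on this split.

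Each library has a pair of columns, R1 and R2, that were added. The silent intervals drew on both: the median interval had 52.0% of its counts in R1 (quartiles 45.2 and 60.0%), 0 intervals had all counts in 1 column, and among the 54 with at least 100 counts the share ran from 40.9% to 56.0%. R1 held 50.6% of the counts on the set and 50.8% of all microvesicle counts.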

How the data were processed

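Total RNA of 4 cell lysate and 4 microvesicle libraries of HEK 293T cells was sequenced. The authors deposited whole-number read counts per gene feature. Per the file headers they were made with featureCounts 1.6.4, against the GENCODE release 19 annotation, leaving out multi-mapping reads. The strand setting was 2 although the Nextera kit does not mark strand, so part of the reads was not counted. Per the submitters' processing notes, STAR (version not given in the sources used here) aligned reads to hg19. The columns R1 and R2 of each library, which no label explains, were added. The 16 count columns all entered, and 0 such columns were set aside.

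From these counts the intervals were chosen, and CPM is the count divided by the library total, scaled to the same total in every library. Exonic length is that of the file, merged exons are its overlapping exons joined, and GRCh38 overlap compares the hg19 numbers with RefSeq genes of GRCh38.p14 by position. Sequences were read from the GRCh37 genome, the file's build. Construct and control microvesicles were compared with edgeR 4.0.16 (quasi-likelihood test after filterByExpr and TMM scaling) over the 4 microvesicle libraries, with Benjamini-Hochberg adjustment over the 1205 features tested, and library values with exact permutation tests. On simulated counts of 1205 features for this comparison, of which 1054 were tested, the fit called 0.577% of unchanged features. It called 2.33% of those changed 4-fold, 17.0% at 16-fold, 76.6% at 64-fold and 98% at 256-fold. The simulation gave every feature the same spread, that of the fit as a whole. The silent intervals were more uneven than others between the control replicates, so these rates may not hold for them. Alternatives were other scalings, filters, columns and thresholds, each library left out, the replicate block, DESeq2 1.42.0 and limma 3.58.1 (voom), with matplotlib 3.10.9, scipy 1.17.1, pandas 2.3.3, numpy 2.4.6, Python 3.11.15 and R 4.3.3.

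The intervals named are among the 12 of highest mean CPM, those with at least 5 counts in each microvesicle library, the 5 smallest p each way where fewer than 5 passed, up to 3 on each side of each threshold, the 3 longest and 3 shortest, and up to 5 of the densest 1 Mb. Short RNA intervals, intervals of 1 library and those called by other fits were named after their values were seen. Some items that the rule took are not reported here. The members, the lists (skin and keratinocyte, blood, structural RNA) and the comparisons were chosen with earlier results of these data known.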

Additional observations from a re-analysis of the deposited data

How the results depend on the processing

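Over all features, construct against control microvesicles gave 0 calls in the 4-library edgeR fit, with RLE scaling, on the R2 column alone and without each library in turn (0 to 0), and 69 with all 8 libraries, 17 with library sizes alone, 20 with no filter beyond 1 count, 112 with DESeq2, 5 with limma-voom, 40 on the R1 column alone and 225 with all 8 libraries and no filter, the last added after seeing the data. For the 418 intervals the calls were 0, and 1, 1, 4, 6, 2 and 58 under the same settings except limma-voom, which gave 0; without each library in turn they were 0 to 0. The filter left 40 of the 418 intervals to test, and 14 with all 8 libraries. With all 8 libraries, the rule holds the intervals near 0 in cells, so those calls are descriptions. The difference in the share of counts on the set stayed negative without each library in turn (-2.85 to -0.78 percentage points), and was -5.80 against library totals without the 2 highest features, which hold 449859 of the 816183 microvesicle counts. The exact p was 0.333 there, at 20 or more and 50 or more counts, on R1 alone and without control replicate II, since the groups did not overlap. The difference in intervals with a count at equal depth ran from -115 to 13.3 without each library in turn and reversed to 13.3 without construct replicate II; the cause was not tested.

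The set itself moves with its thresholds: it holds 235 intervals at 20 or more and 93 at 50 or more microvesicle counts, 231 with 0 and 977 with at most 5 cell counts, and 245 to 409 without each microvesicle library in turn. Its median exonic length ran from 832 to 1491 bp over the settings. Depth limits it too: 3 counts in the pooled cells, the limit for a cell count of 0, are 8.02 CPM. Construct II, with 34602 counts, had 84 of the intervals. Construct and control microvesicles share only replicate number II, so a replicate block could be fitted only over all 8 libraries, with the numeral as a term. This paired fit, added after seeing the data, called 71 of 1113 features (42 higher, 29 lower) and 2 of the 14 intervals tested, TLR12P and MFAP2. The rule holds these intervals near 0 in the cell libraries of this fit too, so the calls on them are descriptions. Between cells and microvesicles, deviations of replicates correlated at -0.0225 (construct) and 0.0161 (control) over 1113 features. With 2 libraries per group at these depths, such values cannot tell whether libraries of the same numeral came from the same culture.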
